A study of Homo sapiens with 4 samples.

Results

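The genes described here are 10 components of Toll-like receptor signalling, namely the receptors TLR1, TLR2, TLR4, TLR5, TLR6, TLR7, TLR8 and TLR9, the adaptor MYD88 and the co-receptor LY96. They were taken by symbol from a table of 59533 genes with a unique symbol, and all 10 were found in each of its 4 columns. RNA sequencing had been done on 1 library of each of 4 groups. HCC1937 is an established breast carcinoma line and THP-1 an established line from a monocytic leukaemia. Both are labelled p53-/- and were infected with p53-R282W, a mutant of the tumour suppressor, so every library carries the mutant. In each line an untreated culture was set beside a culture given decitabine (DAC), at 0.3 µM over 5 days in HCC1937 and at 5 µM over 2 days in THP-1. DAC is a cytosine analogue that is built into DNA and traps the enzymes that methylate CpG sites. No library without the mutant was analysed here, and the labels do not say whether the infected cells were a pool or a clone. Dose and time differ between the lines, so the values of the lines are given side by side.

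Toll-like receptors are membrane proteins that recognise molecules of microbes and begin an inflammatory response. TLR2 pairs with TLR1 or TLR6 at the cell surface to bind lipoproteins, TLR4 binds lipopolysaccharide together with LY96 (also called MD-2), and TLR5 binds flagellin. TLR7 and TLR8 sense single-stranded RNA and TLR9 senses unmethylated CpG DNA, all from within endosomes. MYD88 joins the activated receptors, and those of the interleukin-1 family, to the IRAK kinases, and NF-kB and interferon regulatory factors act further on. Monocytes are known for a broad set of these receptors, and epithelial cells for a smaller one.

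Values are FPKM, in which the fragments of a gene are divided by its exon length and by the depth of the library. The spacing of the values of short genes puts the depth at 18.72 to 19.66 M counted reads per library. Genes that reached 1 FPKM in 1 or both libraries of a line were kept there, and those that differed by 2-fold or more on log2(FPKM + 1), a scale that understates the difference of low genes, were called. No group has replicates, so within a line there is no p-value. The 95% intervals below are exact (Clopper-Pearson) intervals on estimated reads, and they cover counting error only. The libraries held the marker genes of their labelled lines. All 15 markers of epithelium and basal breast cells reached 1 FPKM in each HCC1937 library and all 17 myeloid and monocyte markers did so in each THP-1 library. THP-1 values rest on another gene set and other exon lengths than HCC1937 values, so levels are compared between lines only roughly.

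None of the 10 genes met both the filter and the 2-fold rule on log2(FPKM + 1) in either line. Below the filter in HCC1937, the linear ratio of DAC to untreated was 3.29 for TLR1 and 2.00 for TLR2, and TLR7 was listed at 0 in the untreated library only. In HCC1937, 2 of the 10 were kept (MYD88 and LY96), with 0 called higher and 0 called lower, beside 10.3% of all kept genes called higher and 1.44% called lower. In THP-1, 6 were kept (TLR2, TLR4, TLR6, TLR9, MYD88 and LY96), with 0 called in either direction, beside 1.14% of all kept genes called higher and 0.364% called lower. By any amount, 9 of the 10 were higher with DAC in THP-1, and TLR5 was lower, against 64.3% and 33.1% of all genes above 0. In HCC1937, 5 of the 9 genes above 0 were higher and 4 were lower, against 68.8% and 28.6% of all genes above 0. These directions held when each pair of libraries was rescaled by median of ratios or by upper quartile. The median log2 difference over the 10 was 0.02 in HCC1937 and 0.21 in THP-1, and over all genes above 0 it was 0.11 and 0.06. The HCC1937 median of the 10 includes TLR8, at 0 in both libraries, whereas the set of all genes leaves such genes out.

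**Figure D1:**
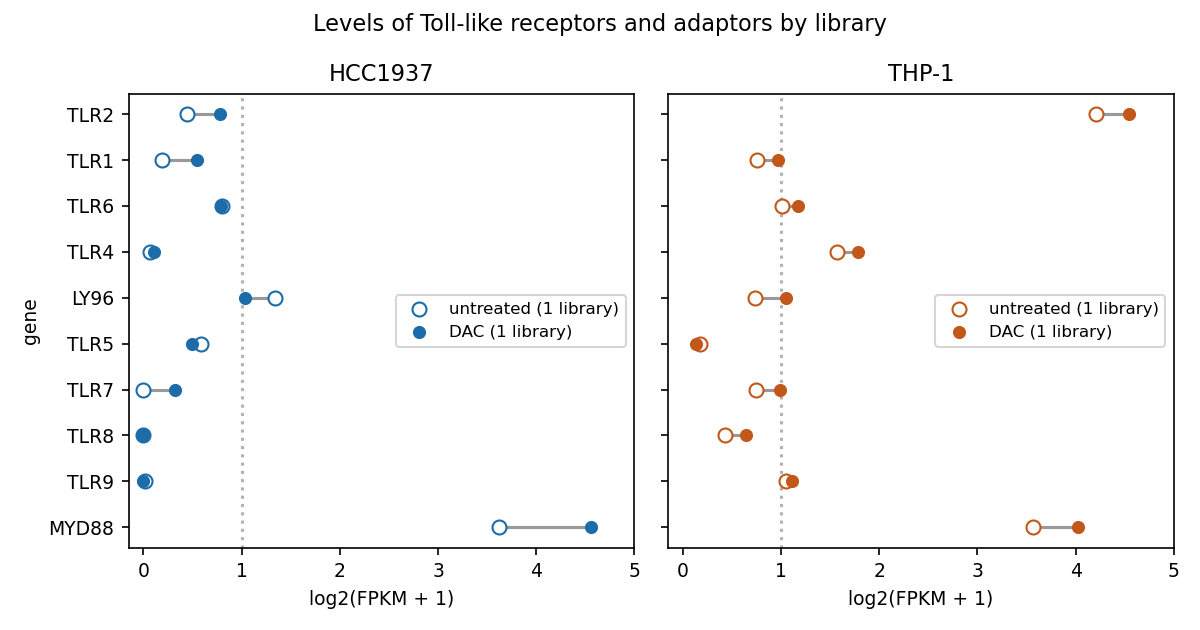
Level of each gene in each library, as log2(FPKM + 1) on the horizontal axis, with HCC1937 on the left and THP-1 on the right. Open circles are the untreated library, filled circles the DAC library (1 library each), and the dotted line marks 1 FPKM. MYD88 stands well to the right in both lines, TLR2 does so in THP-1, and every receptor of HCC1937 lies below 1 FPKM.

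MYD88 (ENSG00000172936.13, chromosome 3, 38138478 to 38143022 on hg38), the adaptor that most of these receptors share, showed the largest difference of the 10 in each line on the log2(FPKM + 1) scale. In HCC1937 it stood at 11.3 FPKM untreated and 22.6 FPKM with DAC, a 2.00-fold ratio with a counting interval of 1.84 to 2.17. On log2(FPKM + 1) this is a difference of 0.94, just under the 2-fold rule and past 1.5-fold, as were 21.9% of all kept genes. It was 0.80 under median-of-ratios scaling and 0.65 under upper-quartile scaling. In THP-1 MYD88 stood at 10.8 FPKM untreated and 15.2 FPKM with DAC, 1.41-fold with an interval of 1.27 to 1.57. The DAC library was the higher of the pair in both lines, and the counting interval lay above 1 in each.

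TLR2 (ENSG00000137462.7, chromosome 4, 153684070 to 153705702), the lipoprotein receptor, was the most abundant receptor of THP-1. It stood at 17.4 FPKM untreated and 22.3 FPKM with DAC, 1.28-fold with an interval of 1.18 to 1.39. It made up 74.7% of the summed FPKM of the 8 receptors in the untreated THP-1 library and 74.8% in the DAC library. That sum was 23.4 FPKM untreated and 29.7 FPKM with DAC, so the receptors were higher in sum with the same share of TLR2. In HCC1937 TLR2 stood at 0.36 FPKM untreated and 0.72 FPKM with DAC, 2.00-fold with an interval of 1.32 to 3.10. The linear ratio equals that of MYD88, but the level lies under the filter and the log2(FPKM + 1) difference was 0.34. The 8 receptors together reached 1.80 FPKM in untreated and 2.65 FPKM in DAC-treated HCC1937.

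TLR1 (ENSG00000174125.7, chromosome 4, 38790677 to 38856817) and TLR6 (ENSG00000174130.12, chromosome 4, 38823715 to 38856817), the partners of TLR2, have overlapping spans and are close copies of each other. TLR1 stood at 0.14 FPKM untreated and 0.46 FPKM with DAC in HCC1937. Its ratio of 3.29 (interval 1.67 to 6.83) rests on about 12 and 39 reads. In THP-1 TLR1 stood at 0.69 and 0.96 FPKM, 1.39-fold, and its interval of 0.911 to 2.19 held 1. TLR6 stood at 0.74 FPKM untreated and 0.73 FPKM with DAC in HCC1937, a ratio of 0.986 with an interval of 0.712 to 1.34. In THP-1 it stood at 1.01 and 1.25 FPKM, 1.24-fold with an interval of 0.969 to 1.61. In HCC1937 the pair thus differed in ratio, TLR1 being higher with DAC and TLR6 at a ratio of 0.986. In GENCODE 29 both genes have the same 5′ boundary, and they share 57 exon bases on the same strand. How reads that fit both copies were counted is not given in the sources used here, so the split between them is uncertain.

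TLR4 and LY96 together form the lipopolysaccharide receptor. TLR4 (ENSG00000136869.14, chromosome 9, 117704175 to 117724730) stood at 0.05 FPKM untreated and 0.08 FPKM with DAC in HCC1937, about 12 and 20 reads. It shares 558 exon bases with AL160272.2 in GENCODE 29, which was at 0 in both HCC1937 libraries. In THP-1 it stood at 1.98 and 2.45 FPKM, 1.24-fold with an interval of 1.03 to 1.48. TLR4 was thus near the floor in the breast line and next after TLR2 in the leukaemia line. LY96 (ENSG00000154589.6) was the only gene of the 10 that was kept in both lines with opposite directions. It stood at 1.53 FPKM untreated and 1.05 FPKM with DAC in HCC1937, and at 0.67 and 1.08 FPKM in THP-1. Its short exons of 607 bases gave only 17 and 12 reads in HCC1937 and 8 and 13 in THP-1, and the intervals of its ratio (0.308 to 1.57 and 0.617 to 4.47) both held 1. A difference of this gene between the libraries was not detectable at this depth in either line.

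TLR5 (ENSG00000187554.12, chromosome 1, 223109406 to 223143282), the flagellin receptor, was the only gene of the 10 that was lower with DAC in both lines. It stood at 0.50 FPKM untreated and 0.41 FPKM with DAC in HCC1937, a ratio of 0.820 with an interval of 0.575 to 1.17. In THP-1 it stood at 0.13 and 0.10 FPKM, on about 11 and 8 reads, with an interval of 0.251 to 1.96. Both intervals held 1, so with the values as deposited neither difference exceeded counting error. For HCC1937 this depends on the scaling, since the interval lay below 1 under upper-quartile scaling. TLR5 was the lowest of the 10 in both THP-1 libraries, while in untreated HCC1937 it was the next receptor after TLR6.

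The endosomal receptors TLR7, TLR8 and TLR9 were at or near 0 in untreated HCC1937 and low but detected in THP-1. TLR7 (ENSG00000196664.4, X, 12867083 to 12890380) was listed at 0 in untreated HCC1937 and reached 0.25 FPKM there with DAC, about 24 reads. A count of 0 allows up to 3 reads, or 0.0307 FPKM, for TLR7 in the untreated library. In THP-1 TLR7 stood at 0.68 and 0.99 FPKM, 1.46-fold with an interval of 1.06 to 2.04. TLR7 was thus higher with DAC in both lines, while its level in HCC1937 stayed under the 1 FPKM filter.

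TLR8 (ENSG00000101916.11, X, 12906620 to 12923169), the neighbour of TLR7, was listed at 0 in both HCC1937 libraries, which allows up to 0.0368 FPKM in each. In THP-1 it stood at 0.35 FPKM untreated and 0.56 FPKM with DAC, 1.60-fold with an interval of 0.982 to 2.59. Its antisense neighbour TLR8-AS1, which overlaps it in GENCODE 29 without sharing exon bases, was listed at 0 and 0.24 FPKM in untreated and DAC-treated HCC1937, and at 0 and 0.10 FPKM in THP-1. TLR9 (ENSG00000239732.3, chromosome 3, 52221080 to 52226163) stood at 0.01 FPKM untreated and 0 with DAC in HCC1937. In THP-1 it stood at 1.08 and 1.17 FPKM, 1.08-fold with an interval of 0.795 to 1.49. In GENCODE 29, 86.3% of the exon bases of TLR9 are shared with AC097637.1 on the same strand. That gene has its own entry in HCC1937 only (0.03 FPKM untreated and 0 with DAC), and how reads in shared exons were counted is not given in the sources used here.

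**Figure D2:**
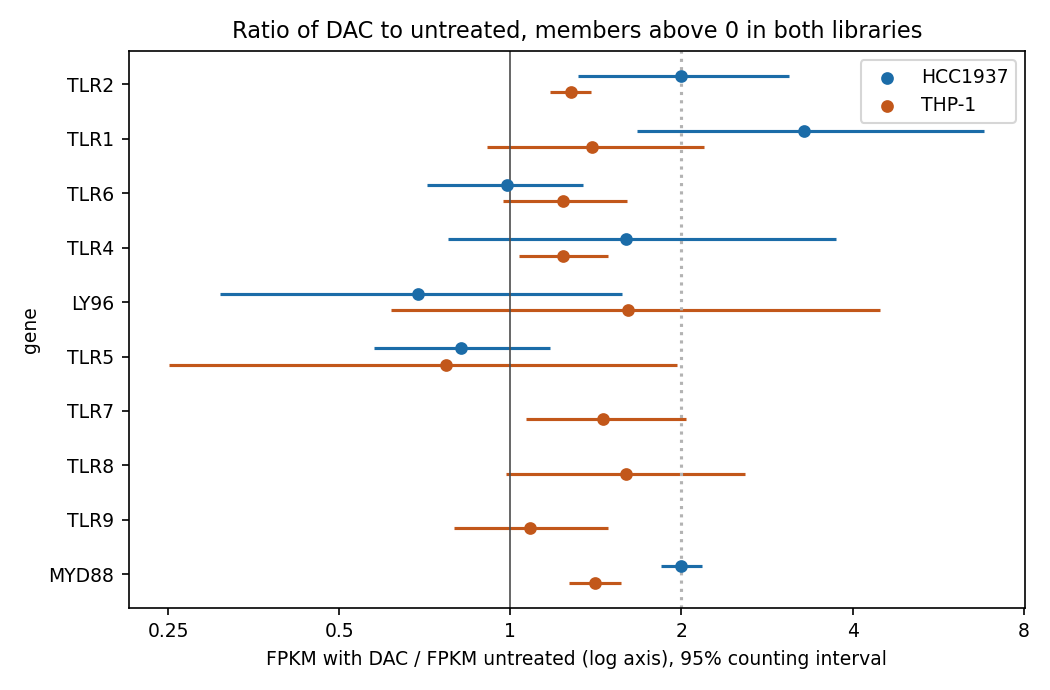
Ratio of the DAC to the untreated library for the genes above 0 in both libraries of a line, on a log axis, in blue for HCC1937 and orange for THP-1. Bars are 95% counting intervals from estimated reads, the solid line marks a ratio of 1 and the dotted line a ratio of 2. The intervals of MYD88 and TLR2 lie above 1 in both lines, and those of LY96 and TLR5 hold 1 in both.

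By counting error alone, TLR1, TLR2, TLR7 and MYD88 were higher with DAC in HCC1937 (4 of the 9 genes above 0), where 36.7% of all genes above 0 had an interval wholly above 1. TLR2, TLR4, TLR7 and MYD88 were so in THP-1 (4 of 10), beside 26.2% of all genes above 0. No interval of the 10 lay wholly below 1 in either line, beside 12.2% of genes in HCC1937 and 10.0% in THP-1. Under upper-quartile scaling the interval of TLR5 in HCC1937 lay below 1, and under both scalings the interval of TLR4 in THP-1 held 1. TLR1, TLR2, TLR4, TLR7 and MYD88 were higher by any amount in both lines, 5 of the 9 genes above 0 in each, beside 47.5% of all such genes. These counts over 9 or 10 genes lie near the background shares and are given as a description.

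A fit over both lines gave no call. limma on log2(FPKM + 1), with an intensity trend and the line as a covariate, tested 13984 genes, of which 6 were among the 10. At an adjusted p of 0.05, 0 genes of the whole table were called higher or lower (0% in each direction), and 1 of the 6 had an unadjusted p under 0.05. That gene was MYD88, at a mean log2 difference of 0.70 (SE 0.19), higher in 2 of 2 lines, with an adjusted p of 0.69 in limma. TLR2 had a mean log2 difference of 0.34 (SE 0.15), higher in 2 of 2 lines, with the same adjusted p of 0.69 in limma. The mean differences of TLR4 (0.13), TLR6 (0.08), TLR9 (0.02) and LY96 (0.01) were smaller than their standard errors of 0.23 to 0.28. What is left over in this fit, with 1 residual degree of freedom, is how far the responses of the lines differ, so it has little power.

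The order of levels differed between the lines, as far as separate gene sets allow. In untreated HCC1937 MYD88 was followed by LY96, TLR6, TLR5, TLR2, TLR1, TLR4 and TLR9, with TLR7 and TLR8 at 0. In untreated THP-1 TLR2 and MYD88 led, followed by TLR4, TLR9, TLR6, TLR1, TLR7, LY96, TLR8 and TLR5. The surface and endosomal receptors other than TLR2 ranged in THP-1 from 0.13 to 1.98 FPKM untreated and from 0.10 to 2.45 FPKM with DAC. Without replicates it cannot be said which neighbours in these orders differ.

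Markers of other cell types also stood higher in the HCC1937 DAC library, beside TLR1, TLR2 and TLR7. The summed level of 17 myeloid and monocyte markers was 12.9 FPKM untreated and 20.0 FPKM with DAC, and LYN alone held 11.5 and 10.7 FPKM of it. Of these 17, 7 were at 0 untreated and 3 with DAC (CD33, PRTN3 and LYZ), and 2 of the 4 kept were called higher (TYROBP and CSF1R), against 1 under upper-quartile scaling. AZU1, which stood at 1788 FPKM in untreated THP-1, was at 0.69 FPKM in the HCC1937 DAC library, and PTPRC (CD45), carried by nearly all blood cells, was at 0.03 and 0.09 FPKM. The summed level of 10 lymphoid markers was 0.41 and 9.07 FPKM, with 3 of 3 kept called higher and CD2 and MS4A1 at 0 in both libraries. That of 10 fibroblast and endothelial markers was 6.05 and 17.6 FPKM, with 3 of 4 kept called higher, against 0 under upper-quartile scaling. The 15 epithelial and basal markers, all kept in HCC1937, had a sum of 4133 FPKM untreated and 3728 FPKM with DAC. Of these, 1 was called higher (KRT14, 14.9 and 112 FPKM) and 0 lower. Called lower were 1 under median-of-ratios scaling (CLDN4) and 2 under upper-quartile scaling (CLDN4 and KRT7). Of all kept genes in HCC1937, 10.3% were called higher and 1.44% lower. The part of the myeloid, lymphoid, fibroblast and endothelial markers in the receptor values was not tested. In bulk RNA more cells of a type and more RNA per cell cannot be told apart. In THP-1 the 17 myeloid markers went from a sum of 4126 FPKM untreated to 3796 FPKM with DAC with 0 called, CD68 standing at 70.9 and 114 FPKM and PRTN3 at 487 and 324 FPKM. The 10 fibroblast and endothelial markers had a sum of 22.2 and 24.7 FPKM in THP-1, with 2 of 3 kept called higher, COL1A1 (0.50 and 2.08 FPKM) and PDGFRB (0.38 and 1.78 FPKM), against 1 under either scaling. The 15 epithelial and basal markers had a sum of 11.3 and 16.0 FPKM there, with 1 of 4 kept called higher, KRT17 (0.52 and 2.75 FPKM). The 10 lymphoid markers had a sum of 9.04 and 12.9 FPKM there, with 0 of 2 kept called. Of all kept genes in THP-1, 1.14% were called higher and 0.364% lower. The part of these 4 marker lists in the THP-1 values was not tested.

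The start regions of the genes are shown because DAC acts through CpG methylation, which was not measured in these libraries. RefSeq promoters (GRCh38.p14) were matched for 7 of the 10 genes, and not for TLR1, TLR7 and LY96. The window was the 250 bases before the RefSeq start site. Set against the gene spans given above, this window lies wholly inside the gene for TLR9. It lies partly inside for MYD88, TLR2, TLR4 and TLR5, and outside for TLR6 and TLR8. In this window TLR2 held 26 CpG, MYD88 and TLR5 19 each, TLR4 5, TLR6 and TLR8 4 each, and TLR9 0. The median of 35116 RefSeq promoters was 11, with quartiles of 3 and 23. As many CpG as in TLR2 or more were held by 19.6% of promoters, and as few as in TLR6 or fewer by 34.3%. The sequences below run 5′ to 3′ on the strand of the gene, with each CpG in capitals, and leave out bases that GENCODE 29 places in an exon of the gene. The parts shown hold 3 CpG for MYD88, 3 for TLR2, 15 for TLR5 and 4 each for TLR6 and TLR8. Most CpG of the MYD88 and TLR2 windows are thus not shown, and the printed parts do not display the contrast in CpG number. MYD88 (chr3:38138411-38138477, plus strand) and TLR2 (chr4:153684030-153684069, plus strand) had intervals above 1 in both lines, as did TLR7, which was not matched. TLR5 (chr1:223143283-223143498, minus strand) was lower in both, and TLR6 (chr4:38856818-38857067, minus strand) and TLR8 (chrX:12906370-12906619, plus strand) stand for the CpG-poor starts.
MYD88: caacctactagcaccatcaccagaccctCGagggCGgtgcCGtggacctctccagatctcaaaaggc
TLR2: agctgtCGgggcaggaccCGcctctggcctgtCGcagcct
TLR5: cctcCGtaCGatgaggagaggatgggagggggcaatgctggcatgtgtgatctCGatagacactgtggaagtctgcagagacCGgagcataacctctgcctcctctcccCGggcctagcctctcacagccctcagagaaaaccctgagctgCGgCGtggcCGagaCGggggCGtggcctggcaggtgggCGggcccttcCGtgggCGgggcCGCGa
TLR6: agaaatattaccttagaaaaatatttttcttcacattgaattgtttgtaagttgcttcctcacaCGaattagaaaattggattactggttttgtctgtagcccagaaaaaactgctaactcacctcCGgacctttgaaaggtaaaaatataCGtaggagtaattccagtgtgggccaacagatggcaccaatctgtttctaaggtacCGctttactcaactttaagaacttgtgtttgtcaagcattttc
TLR8: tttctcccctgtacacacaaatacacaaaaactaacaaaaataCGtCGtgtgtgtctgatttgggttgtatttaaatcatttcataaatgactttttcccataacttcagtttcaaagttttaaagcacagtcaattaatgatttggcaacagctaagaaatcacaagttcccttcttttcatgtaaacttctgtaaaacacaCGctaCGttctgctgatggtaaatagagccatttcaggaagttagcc

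The CpG-rich starts belonged to genes with unlike values in these libraries. MYD88 and TLR5 held the same number of CpG in the 250 bases before the RefSeq start. In HCC1937 MYD88 was 2.00-fold higher with DAC, while TLR5 had a ratio of 0.820 with an interval of 0.575 to 1.17. The part of CpG number in these values was not tested. TLR8, with few CpG, was at 0 in both HCC1937 libraries, and TLR6, with as few, was at 0.74 and 0.73 FPKM. A search of the same 250 bases on both strands found the ETS core GAGGAA, bound by PU.1 among others, in 4 of the 7 promoters (MYD88, TLR4, TLR6 and TLR9), against 23.6% of all promoters. TLR4 held 4 such matches. The core of the interferon-stimulated response element (GAAA, any 2 bases, GAAA) was found in MYD88 only, against 3.02% of all promoters. It lies 61 bases before the RefSeq start. All matches in MYD88, TLR4 and TLR9 lie inside the gene spans given above, and that in TLR6 lies outside. The NF-kB consensus was found in 0 of the 7, against 9.96%. A match is a run of letters in this window and not a bound site.

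**Figure D3:**
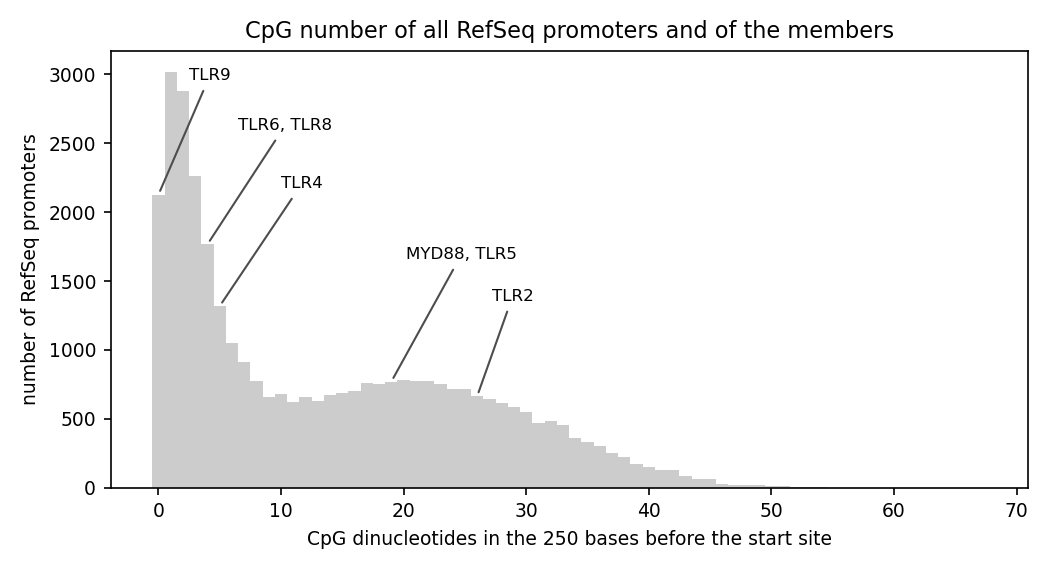
Number of RefSeq promoters (vertical axis) by the number of CpG dinucleotides in the 250 bases before the start site (horizontal axis), with the 7 matched genes marked. TLR2, MYD88 and TLR5 fall in the CpG-rich part (19 to 26 CpG) and TLR4, TLR6, TLR8 and TLR9 in the CpG-poor part (0 to 5 CpG).

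Of the other receptors and co-receptors, CD14 and CD36 had the largest differences in THP-1. CD14, which hands lipopolysaccharide to TLR4 and LY96, stood at 8.69 FPKM untreated and 7.06 FPKM with DAC in HCC1937 and at 3.81 and 5.56 FPKM in THP-1. CD36, a scavenger receptor that assists TLR2, stood at 2.70 and 5.12 FPKM in THP-1. CD180, a receptor relative of TLR4, stood at 3.54 and 3.94 FPKM there. Its partner LY86, chosen after its values were seen, was the most abundant of the list in THP-1, at 25.1 and 24.8 FPKM, and was listed at 0 in both HCC1937 libraries. In this list of 7 genes, 1 was kept in HCC1937 and 4 in THP-1, and 0 were called in either line. TLR3 (0.45 and 0.20 FPKM in HCC1937, 0.02 and 0.07 FPKM in THP-1) and TLR10 (at most 0.01 FPKM in any library) were not kept. The receptors of the interleukin-1 family, which also use MYD88, had 3 of 6 kept in HCC1937 and 1 in THP-1, with 0 called. IL1R1 stood at 0.41 and 1.53 FPKM in HCC1937 and IL1RL1 at 0.99 and 1.30 FPKM. IL1RAP, the chain that pairs with both, stood at 7.58 and 6.38 FPKM there and at 3.09 and 3.33 FPKM in THP-1.

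Chaperones and trafficking factors of the receptors had 11 of 11 kept in HCC1937 and 10 in THP-1, with 0 called in either line. HSP90B1, the endoplasmic reticulum chaperone on which most of these receptors depend for folding, stood at 247 FPKM untreated and 143 FPKM with DAC in HCC1937. Its log2 difference was -0.78, and it passed 2-fold under upper-quartile scaling only. The lysosomal proteases LGMN (35.9 and 60.3 FPKM) and CTSB (83.3 and 121 FPKM) lay on the higher side in HCC1937, as CTSL (17.6 and 24.2 FPKM), CTSS (21.6 and 25.2 FPKM) and AP3B1, a subunit of the sorting complex AP-3 (17.0 and 19.2 FPKM), did in THP-1. UNC93B1, which carries the endosomal receptors to their compartment, was chosen after its values were seen and stood at 28.3 and 27.7 FPKM in HCC1937 and at 123 and 136 FPKM in THP-1.

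Adaptors and kinases beyond MYD88 showed small differences. Of the other adaptors, 2 of 5 were kept in HCC1937 and 3 in THP-1, with 0 called. TICAM1 (TRIF), the adaptor of the route that does not need MYD88, stood at 11.4 and 16.1 FPKM in HCC1937 and at 12.1 and 12.3 FPKM in THP-1. TIRAP, which bridges TLR2 and TLR4 to MYD88, stood at 2.53 and 3.12 FPKM in HCC1937 and at 4.09 and 5.35 FPKM in THP-1, where PIK3AP1 stood at 52.9 and 56.9 FPKM. The kinases and ubiquitin ligases had 21 of 23 kept in HCC1937 and 23 in THP-1, with 0 called in either line. Their median log2 difference was 0.23 in HCC1937 and 0.08 in THP-1, next to 0.19 and 0.07 over all kept genes. TAB2 (7.31 and 12.1 FPKM), CHUK (2.38 and 4.22 FPKM) and MAP3K8 (14.6 and 9.08 FPKM) had the largest differences in HCC1937. IRAK1, a kinase that MYD88 recruits, stood at 137 and 119 FPKM in THP-1, its log2 difference of -0.20 being the largest decrease of the list there. CHUK (8.40 and 10.2 FPKM) and IKBKE (38.0 and 45.4 FPKM), both kinases of the IKK family, lay on the higher side in THP-1.

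The inhibitors had 11 of 13 kept in each line and 0 called. TNIP2 (8.95 FPKM untreated and 17.6 FPKM with DAC) and TNIP1 (127 and 76.4 FPKM), both partners of the NF-kB brake TNFAIP3, went opposite ways in HCC1937. TNIP1 passed 2-fold on the lower side under upper-quartile scaling only. SOCS1, an inhibitor of cytokine signalling, stood at 2.47 and 4.49 FPKM in HCC1937 and at 3.97 and 4.56 FPKM in THP-1. In THP-1 the values of OTUD7B were 2.74 and 3.48 FPKM and those of NLRX1 29.7 and 26.4 FPKM.

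Genes past 2-fold appeared in HCC1937 among the transcription factors and the cytokines. Of 12 transcription factors kept there 1 was called higher and 0 lower, a share near the 10.3% and 1.44% of all kept genes. That factor was IRF7, through which TLR7 and TLR9 induce interferon, at 0.12 FPKM untreated and 17.3 FPKM with DAC. In THP-1 IRF7 stood at 8.12 and 12.6 FPKM, with 0 of 14 kept factors called. IRF1 (19.7 and 10.7 FPKM in HCC1937) passed 2-fold on the lower side under upper-quartile scaling only, and FOS stood at 4.65 and 7.74 FPKM. IRF8, a myeloid factor, stood at 232 and 161 FPKM in THP-1, and REL, an NF-kB subunit, at 3.41 and 4.03 FPKM. Of 13 cytokine and feedback genes kept in HCC1937, 3 were called higher and 3 lower, beside 10.3% and 1.44% of all kept genes. Those called higher were IL6 (2.12 and 15.9 FPKM), CCL5 (19.6 and 70.1 FPKM) and TNF (3.19 and 9.01 FPKM), and TNF lay just under 2-fold with upper-quartile scaling. Those called lower were IL1B (26.9 and 7.84 FPKM), CXCL1 (52.5 and 17.1 FPKM) and CXCL8 (8.43 and 3.03 FPKM), and under both scalings 4 were lower. In THP-1 0 of 13 kept were called, with IL1B at 1.68 and 4.11 FPKM, CCL2 at 2.41 and 5.25 FPKM and CXCL10 at 0.93 and 1.80 FPKM. By any amount, 5 of the 13 were higher and 8 lower in HCC1937, beside 66.2% and 33.5% of all kept genes. In THP-1, 11 of the 13 were higher and 2 lower, beside 65.0% and 34.7% of all kept genes.

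**Figure D4:**
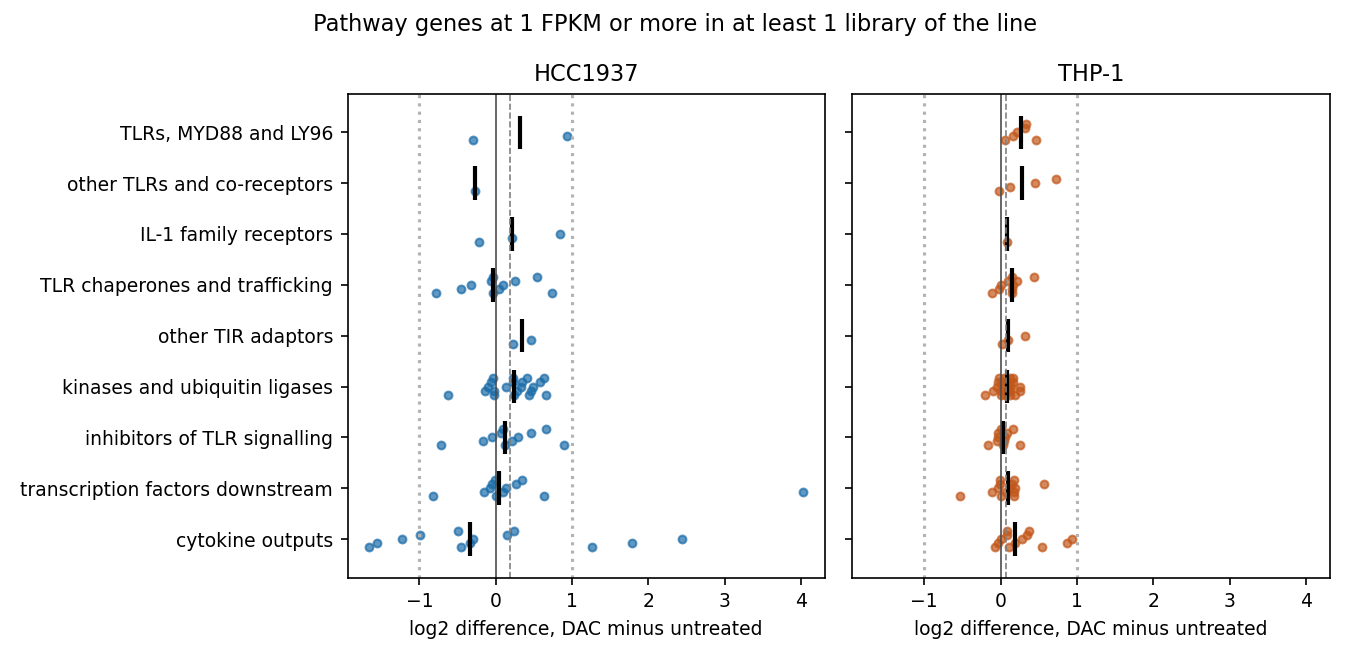
Log2 difference of each kept gene, DAC minus untreated, by list, with HCC1937 on the left and THP-1 on the right. Each point is a gene (1 library per group), black bars are list medians, the dashed line is the median of all kept genes and dotted lines mark 2-fold. Points beyond 2-fold are seen in HCC1937 among transcription factors (1) and cytokine outputs (6), and in no list of THP-1.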

How the data were processed

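RNA was measured in 4 libraries of mRNA (TruSeq, per the labels), 1 per group. The submitters' processing notes name hg38 and the tools FastQC, cutadapt, STAR and HTSeq. Versions, annotation and strand use are not given in the sources used here. No unit is named in the deposited table. The values are read here as FPKM made by the authors, since they have 2 decimals, unequal column sums, and, for short genes (exons of 50 to 250 bp in GENCODE 29), value times length within 0.1 of a whole multiple of a single step in 92.7% to 94.4% of values. That step gave the depth. Of 60612 table lines, 1079 with a repeated symbol were left out, and 23440 of the other 59533 genes had THP-1 values.

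Reads were estimated from FPKM, depth and exon length: all GENCODE 29 exons for HCC1937 and exons of transcripts with a RefSeq match for THP-1. These lengths gave whole reads (within 0.15) for 76.0% and 69.8% of tested values of 1000 to 1999 bp genes, against 45.5% and 53.0% with the lengths exchanged. Estimated reads are therefore approximate, and the intervals cover counting error only.

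The plan held limma 3.58.1 (R 4.3.3) for normalised values, with Benjamini-Hochberg adjustment over all genes. The limma fit and the 2-fold rule were also run on simulated data, in which the changed genes rose by the same fold in both lines. That run gives no measure of the power of the fit where the responses of the lines differ. Other steps used Python 3.11.15. The 10 genes and the lists were chosen with earlier results of these data known. The text names all 10, up to 3 kept members per line of each pathway list, by size of difference, and cytokines called by size. The rule for genes of like pattern applied only to called members, of which there were 0. Alternatives were other scalings (median-of-ratios over genes at 1 FPKM or more in both libraries, upper-quartile), pseudocounts, filters and fold sizes.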

Additional observations from a re-analysis of the deposited data

Results flagged for a closer look

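Among the genes named above that were kept in both lines, 15 lay on opposite sides in HCC1937 and THP-1 as deposited and under both scalings. Many of the named genes were chosen by size of difference, and no share of all genes was computed beside this count. The count is therefore a description only, and some of the differences are very small. The difference between the lines was not tested, since each rests on 1 library per group, and dose and time differed. Values below are log2(FPKM + 1) differences, DAC minus untreated, in HCC1937 and then THP-1, with the THP-1 value minus the HCC1937 value in brackets. The co-receptor LY96 was at -0.30 and 0.32 (0.62), on few reads. The cytokine IL1B was at -1.66 and 0.93 (2.59). The cytokine TNF was at 1.26 and -0.04 (-1.30). The interferon regulatory factor IRF1 was at -0.82 and 0.18 (1.00). The NF-kB inhibitor TNIP2 was at 0.90 and -0.04 (-0.93). The chaperone HSP90B1 was at -0.78 and 0.10 (0.87). The kinase IRAK1 was at 0.57 and -0.20 (-0.78). The kinase MAP3K8 was at -0.63 and 0.12 (0.75). The co-receptor CD14 was at -0.27 and 0.45 (0.71). The AP-1 subunit FOS was at 0.63 and -0.01 (-0.64). The protease CTSS was at -0.32 and 0.22 (0.54). The kinase LYN was at -0.09 and 0.24 (0.32). The receptor chain IL1RAP was at -0.22 and 0.08 (0.30). The trafficking subunit AP3B1 was at -0.03 and 0.16 (0.19). The trafficking factor UNC93B1 was at -0.03 and 0.15 (0.18).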

How the results depend on the processing

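The count of called genes among the 10 was 0 in each line and in limma over both lines. It was also 0 under the alternatives tried, except that 1 gene (MYD88) passed in HCC1937 when genes were called at 1.5-fold. There 21.9% of all kept genes were higher by that size. Within a line, a minimum of 5 FPKM, no filter, a pseudocount of 10 and a 3-fold rule could not have raised the count. With a pseudocount of 0.1 the HCC1937 log2 differences of TLR1 (1.22) and TLR7 (1.81) passed 2-fold, but both genes lay under the filter. The 20 log2 differences (10 genes in each line) were recomputed under both scalings, and 0 of the 40 values turned direction, TLR8 in HCC1937 being 0 throughout. Filters and pseudocounts cannot turn a direction. The median log2 difference of all kept HCC1937 genes was 0.19 as deposited, 0.06 under median-of-ratios and -0.08 under upper-quartile scaling, and in THP-1 it was 0.07, 0.00 and 0.02. With other exon lengths, chosen after seeing the data, the same 4 genes per line had intervals above 1. In limma the lowest adjusted p of the 10 was 0.69 as reported and 0.69 to 1 under the alternatives. The limma fit pairs the libraries of each line, and without the line as a covariate it also called 0 of the 10. No pairing by replicate number was possible, since the labels carry none. No library could be left out within a line, since each group has 1. LY96 rests on 8 to 17 reads per library and TLR8 and TLR9 in HCC1937 on 0 or 1, and the absence of replicates limits every comparison.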
